A study of Mus musculus with 12 samples.

Results

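Neutrophils sorted from the liver 72 hours after carbon tetrachloride, the second of the study's liver time points and the one it places in tissue repair, were compared with neutrophils from control spleen. The comparison used 8 of the 12 libraries of the series, 5 from 72-hour livers and 3 from control spleens. The labels assign each library to its group. The mice were C57BL/6N males of 8 to 10 weeks without any engineered allele. The liver group had received carbon tetrachloride, a solvent that kills centrilobular hepatocytes, as 1 intraperitoneal injection of 1 mL/kg in corn oil, and the spleen group was untreated. All cells were enriched with anti-Ly6G beads and sorted as Ly6G high, Ly6C intermediate, CD11b+ and CD45+, with a purity above 95%. Liver was minced, digested with collagenase and spun on a 37% Percoll gradient, whereas spleen was dissociated mechanically. Organ, injury, vehicle and cell isolation therefore changed together, and their effects cannot be told apart. The control is splenic and not a resting liver neutrophil, and the labels do not say whether each library came from 1 mouse or from pooled mice.

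Neutrophils pack antimicrobial and matrix-degrading proteins into granules that are made in sequence in the bone marrow. Azurophil granules form first, specific granules next and gelatinase granules last, and their mRNAs decline as the cell matures and leaves the marrow. In tissue the cell switches on immediate early transcription factors, chemokines that call in further leukocytes, and mediators such as prostaglandins, oncostatin M and thrombospondin that act on vessels, matrix and repair. The genes were therefore grouped as granule genes, angiogenic genes, genes of TGF-beta signalling, repair and resolution, and genes of activation. These lists were chosen with earlier results of these data known, so counts of called genes in them are descriptive and test nothing.

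Each library held 1267089 to 3017403 reads on genes. All levels below are TMM-normalized CPM, counts scaled to the size of the library, and 1 CPM therefore stands for 1 to 3 reads. Between 2.99% and 3.18% of the uniquely aligned reads of these libraries were counted on a gene, and all 20 genes with the most counts shared exon bases with a gene of the other strand, as did 39.8% of the tested genes. The strand setting of the counting is not given in the sources used here. The reads of a gene and of such a partner cannot be told apart, so overlapped genes are named below with their partner. Whether the counts hold reads of each gene's own strand was not tested. That limit bears on all levels below, also on those of genes without such a partner. Spleen replicates 1 and 2 differed by more than counting noise, but by less than any pair of 72-hour libraries (chi-square per degree of freedom 2.47, against 6.72 to 38.1), and spleen replicate 3 stood apart from both (37.5 and 41.3). The p-values measure the spread between these libraries, which may be technical. Pairs within 72-hour replicates 1 to 3, and the pair of replicates 4 and 5, gave 6.72 to 12.9, and pairs across these sets 20.7 to 38.1. Unaligned reads made up 1.91% and 1.98% of 72-hour replicates 2 and 3, and 49.6% to 50.7% of each other library.

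Of 12488 genes with more than 1 CPM in at least 3 of the 12 libraries, 328 were higher and 338 lower at 72 hours (5.33% of the tested genes in either direction, 2.63% higher and 2.71% lower). Calls needed an adjusted p under 0.05 (edgeR quasi-likelihood test, Benjamini-Hochberg) and a log2 fold change of 0.5 or more in size. Of the called genes, 189 rose and 189 fell by 4-fold or more. Over all tested genes the median change was -0.02 on the log2 scale. In 535 of the called genes no 72-hour library overlapped any spleen library, which was 4.28% of the tested genes. Called or not, every 72-hour library lay above every spleen library in 5.59% of the tested genes and below in 6.37%. The number of calls was 359 without spleen replicate 1, 339 without spleen replicate 2 and 818 without spleen replicate 3.

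**Figure D1:**
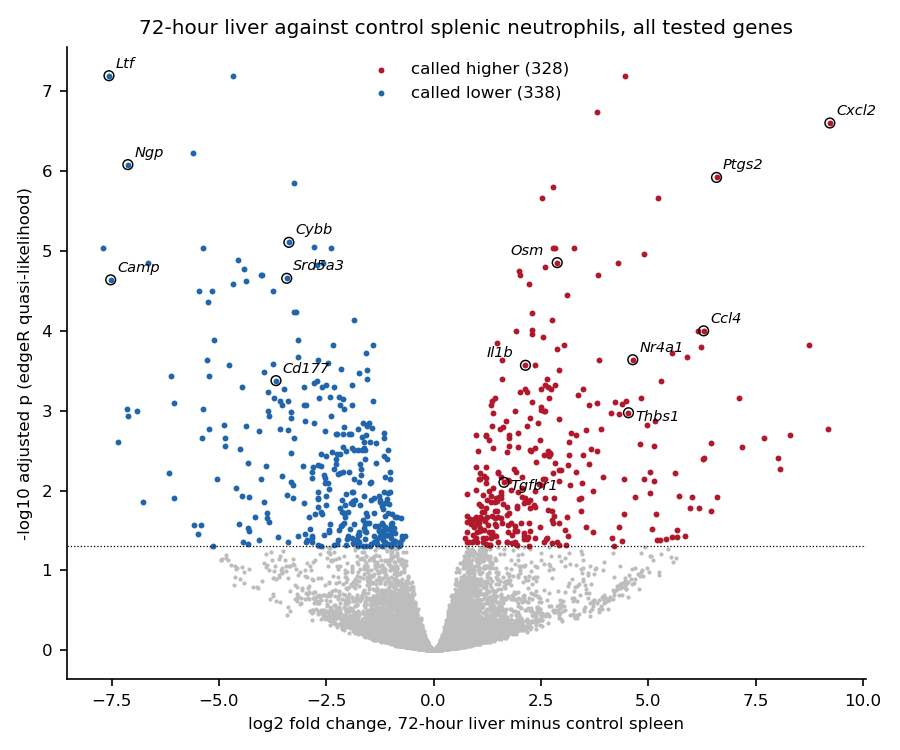
Each point is 1 of 12488 tested genes, with the log2 fold change of 72-hour liver over control spleen on the x axis and -log10 of the edgeR adjusted p on the y axis; red marks the 328 genes called higher, blue the 338 called lower, and the dotted line an adjusted p of 0.05. Circled genes are named; Ltf, Ngp and Camp lie at the far left and Cxcl2 and Ptgs2 at the far right.

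Among genes free of an opposite-strand exon, the smallest adjusted p in the upward direction belonged to Gm16894, Cxcl2, Ptgs2, Kntc1 and Hcar2, and in the downward direction to Ltf, Ngp, Cybb, I830127L07Rik and Srd5a3. Gm16894 is annotated as antisense, and its gene body overlaps one on the opposite strand without shared exons. Kntc1, known for its part in the mitotic checkpoint, stood at 4.18, 5.07 and 4.18 CPM in spleen and at 299, 226, 183, 66.7 and 74.0 at 72 hours (log2 fold change 5.23, SE 0.54, edgeR adjusted p = 2.2e-06). Hcar2, a receptor for nicotinic acid and ketone bodies, stood at 6.49, 7.61 and 5.47 CPM in spleen and at 71.0, 69.8, 96.6, 33.3 and 40.9 at 72 hours (3.26, SE 0.37, edgeR adjusted p = 9.2e-06). In both genes every 72-hour library lay above every spleen library, with replicates 4 and 5 the lowest of the liver libraries. Srd5a3, a polyprenol reductase, fell from 62.6, 55.8 and 44.7 to 3.25, 1.04, 5.88, 9.73 and 6.49 CPM (-3.42, SE 0.43, edgeR adjusted p = 2.2e-05), and here spleen replicate 3 was close to the other spleen libraries.

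The mRNAs of specific granules fell. Of 15 specific granule genes, all of them tested, 9 were lower and 1 higher, against 2.71% and 2.63% of all tested genes, and the median log2 fold change of the list was -2.23 beside -0.02 for all genes. Lactotransferrin (Ltf; chr9:111019271-111042767, GRCm38), the iron-binding protein of these granules, stood at 1712, 1637 and 208 CPM in spleen and at 2.71, 2.42, 4.33, 13.9 and 10.4 at 72 hours. All 5 liver libraries lay below the lowest spleen library, which was replicate 3, and the log2 fold change was -7.56 (SE 0.59, edgeR adjusted p = 6.4e-08). Neutrophilic granule protein (Ngp) showed the same order, with 1895, 1891 and 339 CPM in spleen and 3.80, 5.87, 2.48, 21.5 and 19.5 in the liver (-7.12, SE 0.68, edgeR adjusted p = 8.3e-07). The cathelicidin Camp stood at 169.8, 175 and 8.04 CPM in spleen and had 0 counts in 72-hour replicates 1 to 3 and 3 counts each in replicates 4 and 5, a ratio of 199 in favour of spleen (95% exact counting interval 91.1 to 544, which covers counting error only).

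Fewer granule mRNAs per cell and fewer cells that carry them cannot be told apart in RNA from sorted bulk cells. Cybb, the catalytic subunit of the NADPH oxidase, fell from 236, 265 and 75.9 to 20.6, 26.9, 17.0, 18.1 and 9.08 CPM (-3.37, SE 0.37, edgeR adjusted p = 7.8e-06), whereas its partner subunit Cyba, at 119, 119 and 50.5 CPM in spleen and 71.4 to 104 in the liver, was not called (-0.14, adjusted p = 0.879). Chil3, a chitinase-like lectin, and Cd177, a surface glycoprotein stored in these granules, had log2 fold changes of -5.15 and -3.67. Lysozyme 2 (Lyz2), the siderophore-binding Lcn2 and the collagenase Mmp8 were also lower, by -2.10, -2.96 and -2.23. In Lcn2 the highest liver value, 48.8 CPM, lay just under the 49.2 CPM of spleen replicate 3, and in Mmp8 72-hour replicate 5, at 98.0 CPM, passed the 84.9 CPM of that library. Haptoglobin (Hp), Pglyrp1, Olfm4 and B2m were not called, with log2 fold changes from -1.76 to 0.40.

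Each of the 9 lower specific granule genes was called in every leave-one-out fit, and without spleen replicate 3 the list had 11 lower genes. The higher gene was Cd63, a tetraspanin of granule membranes, at 8.35, 12.7 and 5.79 CPM in spleen and 32.0, 37.7, 50.5, 15.3 and 10.4 at 72 hours (1.73, edgeR adjusted p = 0.027). Replicate 5 lay inside the spleen range, and the call was lost without spleen replicate 1 or 3 or 72-hour replicate 1, 2 or 3 (adjusted p from 0.0547 to 0.116).

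Of 13 azurophil granule genes 7 passed the filter on low values, and 4 of the 13 had 0 counts in all 8 libraries. Among the 7 tested, 4 were lower and 1 higher, against 2.71% and 2.63% of all genes (median log2 fold change -2.15). Among the defining enzymes of these granules Elane and Ctsg were at 0 counts, Mpo did not pass the filter, and Prtn3, which overlaps Plppr3, was not called (0.17, adjusted p = 0.968). The lower genes were a protease inhibitor, a lysozyme, an overlapped protease gene and a transcription factor, Cebpe, which is not itself a granule protein. Serpinb1a, an inhibitor of the granule proteases, had at most 3 counts in each liver library against 46.9, 51.8 and 7.07 CPM in spleen, a ratio of 45.4 (95% exact counting interval 22.7 to 106). Lyz1 fell from 32.5, 19.9 and 5.14 to between 0.691 and 3.47 CPM (-3.39, SE 0.64, edgeR adjusted p = 0.00172). The serine protease gene Prss57, which shares 1157 exon bases with Fstl3 on the opposite strand, fell from 204, 237 and 87.5 to 22.8, 36.3, 23.5, 51.4 and 66.8 CPM. Cebpe, the transcription factor of granule production, was called lower (-2.26, edgeR adjusted p = 0.0469), but the liver values of 15.2, 7.60, 3.71, 0 and 1.30 CPM overlapped the 9.97 CPM of spleen replicate 3. In 8 of 12 leave-one-out fits Cebpe was not called (without spleen replicates 1 and 2, 24-hour replicates 1, 3 and 4, and 72-hour replicates 2, 3 and 5; adjusted p up to 0.233). Serglycin (Srgn), the proteoglycan core that retains proteins in granules, rose from 121, 129.8 and 118 to 207, 283, 389.7, 241 and 319.9 CPM, above spleen in every library (1.23, SE 0.26, edgeR adjusted p = 0.005).

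Of 15 gelatinase granule and secretory vesicle genes 13 were tested, with a median log2 fold change of -0.33. Called higher were 2 of them (15.4%, against 2.63% of all genes). In edgeR, DESeq2 and limma-voom 0 were lower (2 lower at an unadjusted p below 0.05). Mmp9, the gelatinase itself, stood at 498, 464 and 330.2 CPM in spleen and at 323, 281, 388, 177 and 278 at 72 hours, which overlapped and was not called (-0.57, adjusted p = 0.232). The integrin chains Itgam and Itgb2 were not called either (-0.30 and -0.37). The called genes were Cd14, the co-receptor for endotoxin, from 5.10, 5.80 and 6.75 to 51.5, 121, 112, 9.03 and 35.7 CPM (3.48, SE 0.58, edgeR adjusted p = 5.4e-04), and the metal transporter Slc11a1. The latter rose from 31.5, 27.5 and 31.2 to 84.0, 78.1, 99.0, 38.9 and 42.8 CPM. Both lay above spleen in all 5 libraries, but the call of Slc11a1 (edgeR adjusted p = 0.0225) was lost without spleen replicate 1 or 2 or 72-hour replicate 1, 2 or 3 (adjusted p from 0.0571 to 0.13).

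**Figure D2:**
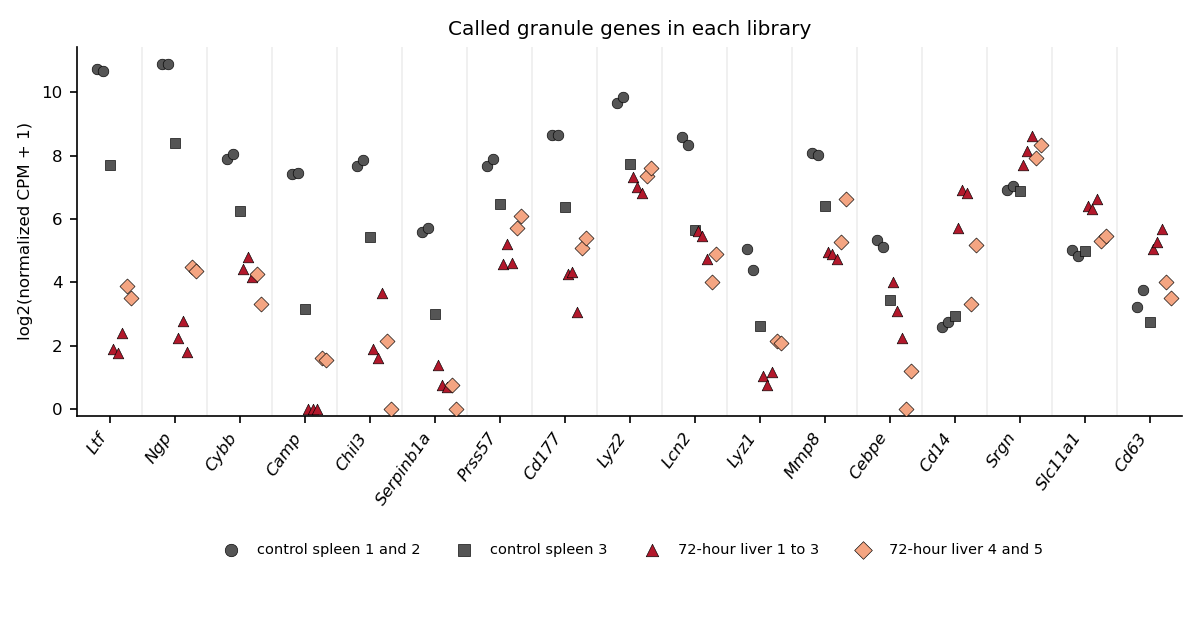
Log2 of normalized CPM plus 1 (y axis) for the 13 granule genes called lower and the 4 called higher (x axis), with 1 point per library; circles and the square are the spleen libraries, triangles 72-hour replicates 1 to 3 and diamonds replicates 4 and 5. Spleen replicate 3 lies below spleen replicates 1 and 2 in each of the 13 genes called lower, and still above all liver libraries in 11 of them.

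Neutrophil markers were set beside the granule genes. Of 14 neutrophil markers, all tested, 5 were lower (Ly6g, S100a8, S100a9, Mmp8 and Ceacam10) and 2 higher (G0s2 and Clec4d). These were 35.7% and 14.3%, against 2.71% and 2.63% of all genes, and the median log2 fold change of the markers was -0.60. Their summed level was 7537, 7495 and 2045 CPM in spleen and 2381 to 3508 in the liver, so spleen replicate 3 lay below every liver library. The receptors Cxcr2 and Csf3r of this list were not called. Cxcr2, the receptor for CXCL1 and CXCL2, stood at 367, 331 and 284 CPM in spleen and at 319.9, 312, 327, 414 and 499.6 in the liver (0.19, adjusted p = 0.826). Csf3r, the G-CSF receptor, stood at 463 to 569 and 461 to 710.0 CPM (0.15, adjusted p = 0.805). Of the 10 tested genes of an immature neutrophil list 6 were lower (60%, against 2.71% of all genes). Among the 6, 4 were the specific granule genes Ltf, Camp, Ngp and Chil3, and the others were Cebpe and Top2a. The summed level of that list was 4720.1, 4698 and 2621 CPM in spleen and 976 to 1529 in the liver, and most of the liver sum was Mki67, which was not called (0.07, adjusted p = 0.951). The part of cell maturity in the granule result was not tested. The sort marker Ly6g stood at 37.1, 37.7 and 9.33 CPM in spleen and at 2.71, 1.04, 1.86, 6.25 and 11.7 at 72 hours (-2.69, edgeR adjusted p = 0.0129), a call lost without spleen replicate 1 or 2 (adjusted p = 0.0726 and 0.0872). The calprotectin genes S100a8 and S100a9 were each called lower (-1.76 and -1.87). Spleen replicate 3, at 80.1 and 339 CPM, lay below every liver library of both genes. Neither was called without spleen replicate 1 (adjusted p = 0.246 and 0.117) or 2 (0.289 and 0.128). Neither was called in DESeq2 (adjusted p = 0.145 and 0.0541) or limma-voom (0.459 and 0.26), and the log2 fold changes in limma-voom were -0.94 and -1.16. With a replicate block that of S100a8 was -0.92. The call of S100a8 was also lost without any 1 of the 72-hour replicates or of 24-hour replicates 1, 3 and 4 (adjusted p from 0.0541 to 0.0852).

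All called genes of the angiogenic list were higher. That list includes Ptgs2, Fgg, Il1b and Cxcr4, which the study names from these same libraries, so its share was in part fixed by the choice. Of 55 listed angiogenic factors and receptors 30 passed the filter, 10 were higher (33.3% against the 2.63% of all genes) and 0 lower in edgeR, DESeq2 and limma-voom (1 lower at an unadjusted p below 0.05), with a median log2 fold change of 0.61. Ptgs2 (chr1:150100031-150108227), the inducible cyclooxygenase that makes prostaglandins, stood at 5.57, 2.17 and 3.86 CPM in spleen and at 259, 505, 739, 158 and 195 at 72 hours (6.59, SE 0.64, edgeR adjusted p = 1.2e-06). Oncostatin M (Osm), a cytokine of the IL-6 family, rose from 10.7, 12.7 and 7.72 to 46.1, 91.2, 92.2, 67.4 and 84.4 CPM (2.88, SE 0.35, edgeR adjusted p = 1.4e-05). Both lay far above spleen in every liver library, and in Osm replicates 4 and 5 fell within the range of replicates 1 to 3.

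Nr4a1, an orphan nuclear receptor induced early in activation, stood at 5.57, 6.16 and 10.3 CPM in spleen and at 164, 276, 379, 43.8 and 62.9 at 72 hours. Thrombospondin 1 (Thbs1), a matrix protein that binds TGF-beta and restrains vessel growth, stood at 3.71, 3.62 and 17.7 CPM in spleen and at 175, 256, 500.2, 16.7 and 51.9 in the liver (4.54, SE 0.81, edgeR adjusted p = 0.00106). Replicate 4 lay below spleen replicate 3, and Thbs1 shares 208 exon bases with Gm29233 on the opposite strand, which was also called higher (4.40). Jun, which overlaps Junos by 232 exon bases, Btg1 and Tnfaip2, which overlaps Gm40578, rose by 2.18, 0.98 and 1.09 on the log2 scale, with all liver libraries above all spleen libraries. The call of Btg1 was lost without spleen replicate 1 (adjusted p = 0.0557) and that of Tnfaip2 without spleen replicate 1 or 2 or 72-hour replicate 2 or 3 (adjusted p from 0.0589 to 0.121). Cxcr4, the receptor for CXCL12 that holds neutrophils in the marrow and marks aged ones, stood at 58.0, 50.7 and 54.3 CPM in spleen and at 117, 106, 193, 84.1 and 126 at 72 hours, which did not overlap (1.21, SE 0.35, edgeR adjusted p = 0.046). Cxcr4 was not called in 8 of 12 leave-one-out fits (all but those without 24-hour replicates 1 to 3 and 72-hour replicate 4; adjusted p from 0.0585 to 0.188).

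Vascular endothelial growth factor A (Vegfa), the main growth factor of endothelium, stood at 8.35, 4.71 and 11.9 CPM in spleen and at 14.1, 19.3, 36.8, 14.6 and 16.2 at 72 hours. The groups did not overlap, but the difference did not pass the test (1.29, SE 0.45, edgeR adjusted p = 0.107). Vegfb, Fgf2 (which overlaps Nudt6), Angpt2, Plau, Hif1a (which overlaps Gm15283) and the receptors Flt1 and Nrp1 were tested and not called, and 13 of the 55 genes had 0 counts in all 8 libraries. Of the 10 higher genes 6 were called without spleen replicate 1, and 7 without spleen replicate 2.

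Fibrinogen gamma (Fgg), a clotting protein made by hepatocytes, had 0 counts in the spleen libraries and 2 to 8 counts in each liver library (3.25, 2.07, 2.48, 2.08 and 1.30 CPM), at least 1.95-fold higher against a floor of 3 counts per library. Its edgeR adjusted p was 0.041, and it was not called in 6 of 12 leave-one-out fits (without spleen replicate 1, 2 or 3 or 72-hour replicate 1, 2 or 3; adjusted p from 0.073 to 0.155), and it shares 115 exon bases with Gm30097, which was called higher too (edgeR adjusted p = 0.00389). Of 16 hepatocyte markers 6 were tested, and Fgg was the only one called (16.7%, against 2.63% of all genes). The median log2 fold change of the tested markers was 5.07, or 0.92 with genes near 0 counts held at their bound. Of these markers 5 were higher at an unadjusted edgeR p below 0.05. The summed level of the 16 markers was 2.32 to 6.11 CPM in spleen and 15.2, 30.1, 41.8, 12.5 and 5.19 in the liver. Albumin stood at 0 to 0.362 CPM in spleen and at 0, 4.49, 10.2, 0 and 0.649 in the liver, and the part of hepatocyte RNA in the Fgg result was not tested.

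In the TGF-beta, repair and resolution list 45 of 62 genes were tested, with a median log2 fold change of 0.13. Among them 8 were higher and 3 lower (17.8% and 6.67%, against 2.63% and 2.71% of all genes). The higher genes held a receptor (Tgfbr1), feedback inhibitors of TGF-beta signalling (Skil, Smad7, Tgif1), inhibitors of inflammation (Il1rn, Tnfaip3) and Osm and Atf3. Tgfbr1 (chr4:47353222-47414931), the type I receptor kinase, stood at 15.8, 22.5 and 28.3 CPM in spleen and at 81.9, 98.8, 90.7, 38.2 and 35.7 at 72 hours, all above spleen (1.64, SE 0.37, edgeR adjusted p = 0.00787). The type II receptor Tgfbr2, at 42.2 to 71.1 and 39.6 to 52.6 CPM, was not called (-0.32, adjusted p = 0.626). Neither was the ligand Tgfb1, at 19.0, 27.9 and 22.8 CPM in spleen and 45.0, 35.2, 33.1, 29.9 and 29.2 in the liver (0.57, adjusted p = 0.342), nor the transducers Smad2, Smad3 and Smad4.

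Il1rn, the natural antagonist of the IL-1 receptor, rose from 34.3, 35.5 and 36.0 to 166, 165, 147, 52.1 and 66.2 CPM (1.76, SE 0.34, edgeR adjusted p = 0.00201). Atf3, a stress-induced repressor of cytokine genes that lies within a gene on the opposite strand without shared exons, stood at 5.57, 2.54 and 7.07 CPM in spleen and at 22.2, 33.9, 52.0, 13.2 and 27.9 at 72 hours (2.56, SE 0.57, edgeR adjusted p = 0.00709). Tnfaip3, which encodes the deubiquitinase A20, was higher in replicates 1 to 3, at 15.7, 46.3 and 47.4 CPM, but at 4.17 CPM in replicate 4, below the 4.50 CPM of spleen replicate 3. Annexin A1 (Anxa1), a mediator that limits neutrophil entry and whose gene body overlaps one on the opposite strand without shared exons, was lower, at 581, 629 and 152 CPM in spleen and 73.7, 79.4, 45.5, 155 and 170.0 in the liver (-2.12, SE 0.42, edgeR adjusted p = 0.00282), with replicates 4 and 5 above spleen replicate 3. The other lower genes were Mmp8 and Bmpr1a, a BMP receptor that overlaps 290 exon bases of Gm17110 (-2.27, edgeR adjusted p = 0.00402).

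Of the 11 calls in this list Osm, Il1rn, Tnfaip3, Anxa1 and Mmp8 were made in every leave-one-out fit, and the other 6 were not. Of the 8 higher genes 5 were called without spleen replicate 1 and 4 without spleen replicate 2, and 5 without 72-hour replicate 3. Atf3 was lost without spleen replicate 2 (adjusted p = 0.0672), Tgfbr1 and Bmpr1a without spleen replicate 1 (0.0704 and 0.0581). Skil was lost without spleen replicate 1 or 2 or 72-hour replicate 3 (adjusted p = 0.109, 0.0783 and 0.0533), and Smad7 without spleen replicate 2 or 3 or 72-hour replicate 1 or 3 (0.0549 to 0.2). Tgif1 was lost in 7 of those fits (spleen replicates 1 and 2, 24-hour replicates 2, 3 and 4, and 72-hour replicates 2 and 3; adjusted p up to 0.244). Tnfaip3 and Tgif1 were not called in limma-voom (adjusted p = 0.059 and 0.0571). Hgf, Il10, Timp1, Arg1 and Axl of this list were tested at a few CPM and not called, and 11 of the 62 genes had 0 counts in all 8 libraries.

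**Figure D3:**
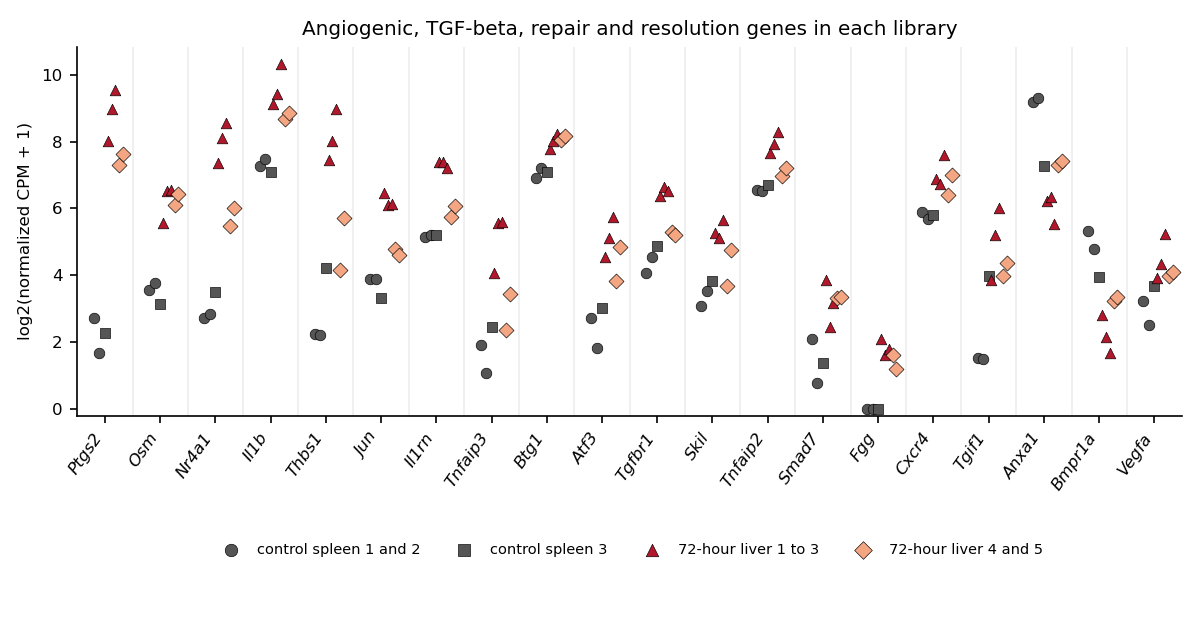
Log2 of normalized CPM plus 1 (y axis) for the called angiogenic, TGF-beta, repair and resolution genes and for Vegfa, which was not called (x axis), with 1 point per library and symbols by group and replicate set. Diamonds (72-hour replicates 4 and 5) lie below triangles (replicates 1 to 3) in Ptgs2, Nr4a1, Jun, Il1rn and Tgfbr1, and among them in Osm and Btg1.

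Immediate early genes had the highest share of genes called higher among the pathway lists. Of 41 tested genes of immediate early and AP-1 factors 25 were higher (61% against 2.63% of all genes) and 0 lower in edgeR, DESeq2 and limma-voom (1 lower at an unadjusted p below 0.05), with a median log2 fold change of 2.18, or 1.83 with genes near 0 counts held at their bound. Fos stood at 65.9, 50.4 and 147 CPM in spleen and at 486, 703, 874, 511 and 554 at 72 hours (2.83, SE 0.33, edgeR adjusted p = 9.2e-06). Dusp1, a phosphatase that switches off MAP kinases and overlaps 11 exon bases of Ergic1, stood at 56.1, 50.0 and 121 CPM in spleen and at 396, 567, 548, 376 and 735 in the liver (2.79, SE 0.32, edgeR adjusted p = 9.2e-06). In both genes replicates 4 and 5 lay within or near the range of replicates 1 to 3. Egr1, Junb, which overlaps Prdx2, and Btg2 were higher too (2.76, 1.98 and 2.59), whereas Jund, which overlaps Gm11175, Atf4, Dusp6 and Rgs2 were not called (0.25, 0.90, 0.11 and 0.50).

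Chemokine and cytokine genes rose in part. Of 23 tested genes of 41 listed, 9 were higher (39.1%, against 2.63% of all genes). In edgeR, DESeq2 and limma-voom 0 were lower (0 lower at an unadjusted p below 0.05). The median log2 fold change was 0.87, or 0.72 with genes near 0 counts held at their bound. Cxcl2, a chemoattractant of neutrophils, was counted 1 or 2 times per spleen library and stood at 222, 544, 653, 65.3 and 190.1 CPM at 72 hours, a ratio of 821 (95% exact counting interval 320.4 to 3014). Ccl4 had 1 count in 3 spleen libraries and 4.17 to 22.2 CPM in the liver, a ratio of 128 (95% exact counting interval 22.6 to 5065). Ccl3 stood at 44.5, 48.2 and 134 CPM in spleen and at 991, 1181, 1342, 206 and 204 at 72 hours (3.37, SE 0.57, edgeR adjusted p = 6.3e-04), so replicates 4 and 5 stood well under replicates 1 to 3 while above spleen. Il1b rose from 152, 177 and 134 to 559, 686, 1273, 406 and 467 CPM (2.14, SE 0.33, edgeR adjusted p = 2.7e-04). Tnf was not called (0.99, adjusted p = 0.37), at 8.81, 6.52 and 2.25 CPM in spleen and 8.34 to 15.7 in the liver, and neither were Il1a, which overlaps Gm14023, Il10, or Il27, which overlaps Apobr. The remaining higher genes were Cxcl1, Cxcl3, Cxcl10 (which overlaps Art3), Csf1 and Il12a, and in replicate 4 Cxcl1 and Cxcl10 had 0 counts. Cxcl1 was lost without spleen replicate 2 (adjusted p = 0.0542) and Csf1 without spleen replicate 1 or 2 (0.0542 and 0.101). Il12a was lost without spleen replicate 1 or 3 or 72-hour replicate 2 (adjusted p from 0.0866 to 0.107), and Cxcl10 without spleen replicate 2 or 3 or 72-hour replicate 1, 2 or 3 (0.0638 to 0.191). Cxcl1 and Cxcl10 were not called in limma-voom either (adjusted p = 0.0923 and 0.0774). Without spleen replicate 2 the list had 6 higher genes.

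Il1b shares 25 exon bases with its antisense gene Il1bos, which rose to a like degree (2.01). The shared bases are chr2:129369897-129369921 (GRCm38, minus strand), which belong to an exon of a retained-intron transcript of Il1b, and they are shown because they are the whole stretch in which a read could belong to either gene's exons.
Il1b and Il1bos: ctggcccagaatctgcttctagact

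The promoters of 3 CXC chemokine genes and of Nfkbia, which encodes the NF-kB inhibitor IkB-alpha, are shown because all 4 genes were called higher and NF-kB is known, as background, to act on them. Each is the 150 bases before the RefSeq start (GRCm38.p6), 5′ to 3′ on the gene's strand, with matches to the kappa B letters (GGG, any 2 bases, TTTCC) on either strand in capitals. They lie at chr5:90891095-90891244 (plus strand, Cxcl1), chr5:90903749-90903898 (plus, Cxcl2), chr5:90785951-90786100 (plus, Cxcl3) and chr12:55492648-55492797 (minus, Nfkbia).
Cxcl1: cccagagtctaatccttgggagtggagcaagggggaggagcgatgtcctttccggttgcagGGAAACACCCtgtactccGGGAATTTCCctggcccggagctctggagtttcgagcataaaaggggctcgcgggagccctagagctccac
Cxcl2: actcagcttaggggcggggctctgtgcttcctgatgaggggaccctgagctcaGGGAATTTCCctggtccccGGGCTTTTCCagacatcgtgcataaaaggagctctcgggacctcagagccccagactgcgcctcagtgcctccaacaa
Cxcl3: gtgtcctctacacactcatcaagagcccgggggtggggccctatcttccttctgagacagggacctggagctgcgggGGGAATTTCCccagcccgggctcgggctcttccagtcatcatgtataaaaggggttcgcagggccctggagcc
Nfkbia: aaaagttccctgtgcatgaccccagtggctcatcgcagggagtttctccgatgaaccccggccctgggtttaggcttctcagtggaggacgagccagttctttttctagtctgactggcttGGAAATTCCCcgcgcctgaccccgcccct

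In the 250 bases before the start, 10 of 214 matched genes called higher held this motif (4.67%), against 2 of 217 called lower (0.922%), 118 of 8200 tested (1.44%) and 1.4% of all 27025 windows. The AP-1 letters TGANTCA were held by 5.14% of the genes called higher, 6.45% of those called lower and 4.59% of those tested, and the CRE letters TGACGTCA by 5.14%, 1.84% and 2.67%. A match is a run of letters, not a measured binding site.

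Of 33 tested genes listed as NF-kB subunits and feedback inhibitors 7 were higher and 1 lower, with a median log2 fold change of 0.48. These were 21.2% and 3.03%, against 2.63% and 2.71% of all genes, so the share lower was near that of all genes. The subunits Nfkb1, Nfkb2 (which overlaps AC114539.1), Rel, Rela and Relb were not called (-0.22 to 0.86). The higher genes included Nfkbia, Nfkbid and Nfkbiz, which encode proteins of the IkB family. Nfkbia rose from 16.2, 19.9 and 9.33 to 83.0, 105, 184, 31.3 and 65.5 CPM (2.64, SE 0.42, edgeR adjusted p = 4.0e-04). Nfkbid rose from 6.03, 6.16 and 8.36 to 46.6, 55.6, 93.8, 23.6 and 40.2 (2.92, edgeR adjusted p = 3.1e-04), and Nfkbiz rose from 11.1, 15.2 and 18.0 to 34.7, 49.4, 48.9, 45.9 and 48.0 (1.61, edgeR adjusted p = 0.0016). In Nfkbia, Nfkbid and Nfkbiz every liver library lay above every spleen library. Ikbke, which encodes a kinase, was also called higher, but not in limma-voom (adjusted p = 0.283). Its log2 fold change was 4.61 in replicates 1 to 3 and 0.21 in replicates 4 and 5. Ikbkg, the lower gene, overlaps G6pdx on the opposite strand (-1.14, edgeR adjusted p = 0.0442). It was not called in 7 of 12 leave-one-out fits (without spleen replicates 1 and 2, 24-hour replicates 2 and 4, 72-hour replicates 1, 2 and 3; adjusted p up to 0.231).

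Of 41 tested chemoattractant receptors and adhesion molecules 5 were higher (12.2%, against 2.63% of all genes), with a median log2 fold change of 0.19. In edgeR, DESeq2 and limma-voom 0 were lower (3 lower at an unadjusted p below 0.05). Ccrl2, a receptor that binds chemerin, rose from 1.86, 3.62 and 1.61 to 56.9, 149, 221, 10.4 and 31.8 CPM (5.29, SE 0.85, edgeR adjusted p = 4.2e-04). The integrin chain Itgb1 rose from 11.6, 9.42 and 4.18 to 42.3, 52.2, 57.6, 20.8 and 22.7 CPM (2.25, SE 0.41, edgeR adjusted p = 0.00125). Icam1, which overlaps Gm47079, was higher in replicates 1 to 3, at 23.3, 32.5 and 38.4 CPM, but replicate 5, at 5.19, lay below the 6.89 CPM of spleen replicate 2, and the call was lost without spleen replicate 1 (adjusted p = 0.0639) and in limma-voom (0.0554). The chemoattractant receptors Fpr1, Fpr2 and C5ar1 were not called (-0.33, -0.74 and 0.37). Without spleen replicate 1 the list held 2 higher genes, without 24-hour replicate 4, spleen replicate 2 or 72-hour replicate 1 or 2 it held 3, and without 72-hour replicate 4 it held 8.

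Of 21 tested antigen presentation genes 3 were higher (14.3%, against 2.63% of all genes), with a median log2 fold change of 0.46 for the list. Each of the 3 was called in replicates 1 to 3 and not in replicates 4 and 5. Cd74, the invariant chain of MHC class II, stood at 2.32, 1.45 and 1.93 CPM in spleen and at 27.1, 25.2, 25.1, 2.08 and 1.95 at 72 hours, so replicates 4 and 5 lay within the spleen range (3.11, edgeR adjusted p = 0.0212). H2-Eb1 had 1 count in 3 spleen libraries and 4.88, 12.4, 8.67, 1.39 and 1.30 CPM in the liver, a ratio of 56.4 (95% exact counting interval 9.83 to 2257). The gene body of H2-Eb1 overlaps one on the opposite strand without shared exons. Cd274, which encodes PD-L1 and overlaps AC119228.1, stood at 12.3 to 19.6 CPM in spleen and at 46.6, 81.2, 95, 19.5 and 24.0 in the liver. No gene of this list was called without spleen replicate 1 or without spleen replicate 2 (Cd74 adjusted p = 0.0725 and 0.118, H2-Eb1 0.0629 and 0.0773, Cd274 0.112 and 0.14). Cd74 was also lost without spleen replicate 3 or 72-hour replicate 1 or 2 (0.0507, 0.0547 and 0.0572), and Cd274 without 72-hour replicate 2 or 3 (0.0718 and 0.0747). In limma-voom neither was called (adjusted p = 0.153 and 0.0601). In this list 1 was called without 72-hour replicate 2, and 5 without 72-hour replicate 4 or 5. Summed B cell markers were 58.5 to 69.1 CPM in spleen and 41.8 to 60.4 in the liver, and dendritic cell markers 26.5 to 101 and 34.4 to 77.7 CPM, with Ccr7 at 0 counts in all 8 libraries; their part in these calls was not tested.

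Of 30 tested hypoxia and glycolysis genes 2 were higher and 1 lower (6.67% and 3.33%, against 2.63% and 2.71% of all genes), with a median log2 fold change of 0.01. The lactate exporter Slc16a3 rose from 44.1, 46.0 and 35.7 to 83.5, 106, 167, 58.4 and 68.1 CPM (1.21, edgeR adjusted p = 0.0164). The glucose transporter Slc2a1, which overlaps Gm12868, rose from 16.7, 11.6 and 11.3 to 26.6, 25.9, 28.2, 22.9 and 38.3 CPM (1.11, edgeR adjusted p = 0.0313). Gapdh, which overlaps 68 exon bases of Iffo1, was lower (-1.05, edgeR adjusted p = 0.0106). None of these 3 calls was made without spleen replicate 2 (adjusted p = 0.0617, 0.176 and 0.121) or spleen replicate 1 (0.0674, 0.0513 and 0.0637). Neither rise was called without spleen replicate 3 (0.0523 and 0.0853) or 72-hour replicate 3 (0.0557 and 0.0594). The call of Slc2a1 was also lost without 72-hour replicate 1, 2 or 5 (0.0525, 0.0524 and 0.0698).

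**Figure D4:**
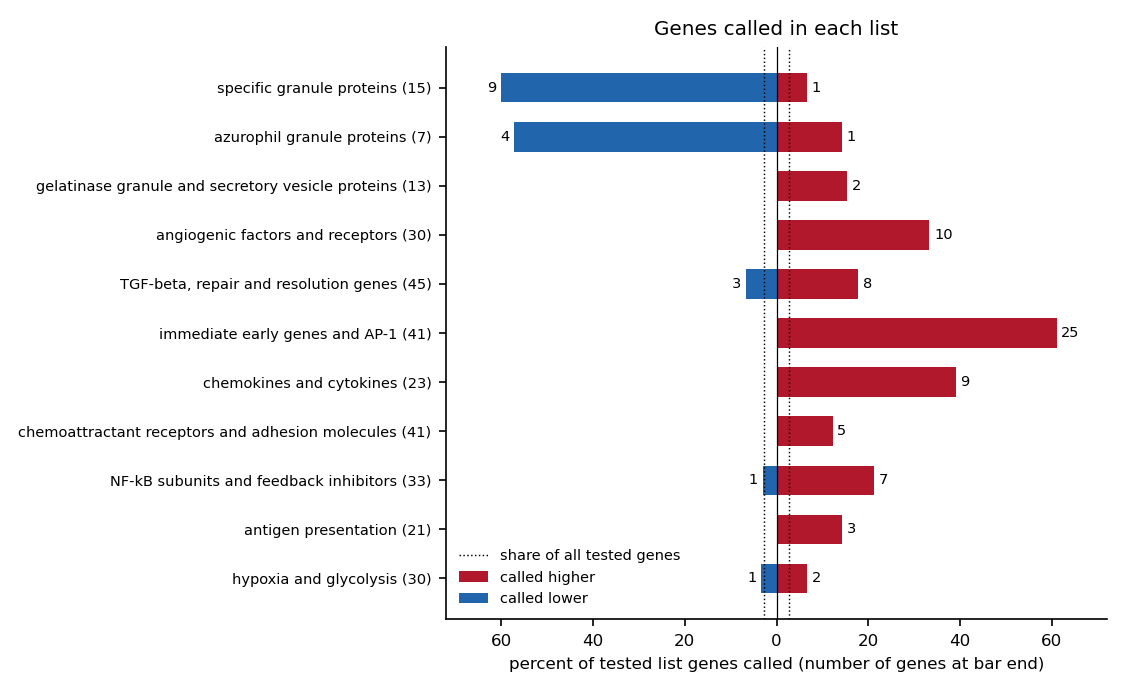
Percent of the tested genes of each list (number tested in brackets on the y axis) that were called higher, to the right, or lower, to the left, with the number of genes at the end of each bar; dotted lines mark the shares of all tested genes, 2.63% higher and 2.71% lower. The bars of the specific and azurophil granule lists reach farthest to the left, and those of the immediate early, chemokine and angiogenic lists farthest to the right. The azurophil bar includes no call of Mpo, Elane, Ctsg or Prtn3, and it includes that of Cebpe, a transcription factor and not a granule protein.

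The changes were next compared between the 2 sets of 72-hour replicates, each against the same 3 spleen libraries. With replicates 1 to 3 alone 1189 genes were called (9.52% of those tested; 4.9% higher and 4.62% lower). With replicates 4 and 5 alone, fewer and shallower libraries, 193 were called (1.55%; 0.825% higher and 0.721% lower). Of the 328 genes called higher with all 5 libraries 319 were called higher in replicates 1 to 3, 87 in replicates 4 and 5 and 83 in both, and 328 and 327 had a positive log2 fold change in the 2 sets. Of the 338 called lower, 300, 76 and 74 were called, and all 338 were negative in each set. Replicates 4 and 5 both lay above every spleen library in 262 of the 328 higher genes and below in 287 of the 338 lower ones, beside 13.6% and 15.8% of all tested genes. Replicates 1 to 3 did so in 325 and 307, beside 14.4% and 15.1%. Since the genes were called from all 5 libraries, these counts describe the calls and do not test them.

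The sizes differed more than the directions. The median log2 fold change of the higher genes was 2.59 in replicates 1 to 3 and 1.48 in replicates 4 and 5, and 88.4% of them changed more in the first set. For the lower genes the medians were -2.42 and -1.91, and the share was 71.6%. Of the lower granule genes, 9 of the 9 specific granule genes were called in replicates 1 to 3 and 7 in replicates 4 and 5 (medians -4.32 and -3.82), the pair missed being Lyz2 and Mmp8 (adjusted p = 0.0518 and 0.287). Of the 4 lower azurophil granule genes 2 were called in both sets, while Lyz1 was not called in replicates 4 and 5 (adjusted p = 0.169) nor Cebpe in replicates 1 to 3 (0.0802). Of the 10 higher angiogenic genes 5 were called in replicates 4 and 5, namely Ptgs2, Osm, Nr4a1, Il1b and Btg1. Of the 8 higher TGF-beta, repair and resolution genes only Osm was called there (2.87, edgeR adjusted p = 1.3e-04, beside 2.89 in replicates 1 to 3). Tgfbr1, Il1rn and Atf3 had log2 fold changes of 0.73, 0.74 and 2.01 with adjusted p of 0.585, 0.328 and 0.204. Chemokines and cytokines had medians of 4.80 and 1.58, NF-kB genes 3.68 and 1.68, and the 3 antigen presentation genes 3.74 and 0.50. The difference between the sets was not tested, since the labels name no batch.

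**Figure D5:**
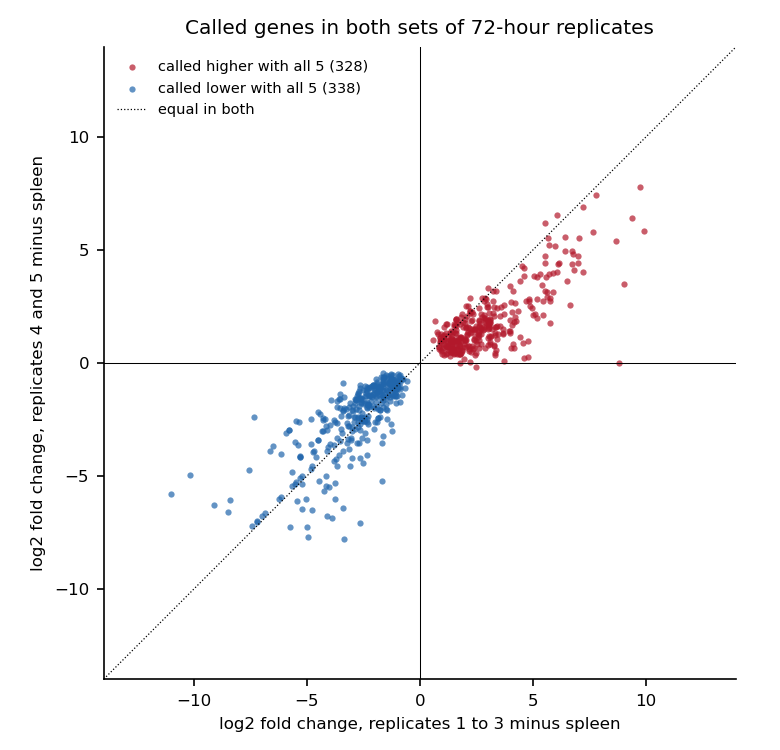
Log2 fold change against the same 3 spleen libraries with 72-hour replicates 1 to 3 (x axis) and with replicates 4 and 5 (y axis) for the 328 genes called higher (red) and 338 called lower (blue) with all 5; the dotted line marks equal change. Most red points lie below the line and most blue points above it, so that changes were smaller in replicates 4 and 5.

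Of the 666 called genes 324 had exons that overlap an opposite-strand gene (48.6%, against 39.8% of tested genes), 149 of them higher and 175 lower. The partner was itself tested for 252 of these, and it was called in the same direction for 72 and in the opposite direction for 4. The overlapped genes with the smallest adjusted p were Tctex1d4 and Plk3, partners of each other with 84 shared exon bases, Cebpb and Tmem189, partners with 312, and Dusp1 among those higher. Plk3, a stress-responsive kinase, stood at 1.39, 6.52 and 3.22 CPM in spleen and at 98.7, 151, 207, 41.0 and 77.2 at 72 hours (4.91, SE 0.57, edgeR adjusted p = 1.1e-05). Cebpb, a transcription factor of emergency granulopoiesis, stood at 132, 129 and 138 and at 750.4, 1059, 1318, 479 and 998 CPM (2.79, SE 0.28, edgeR adjusted p = 1.6e-06). Tmem189 stood between 2239 and 2514 CPM in spleen and between 7962 and 18398 in the liver (2.53, SE 0.26, edgeR adjusted p = 2.2e-06).

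Among the lower overlapped genes were Bricd5 (partner Mlst8, 997 shared exon bases), Gtf2ird1 (Gm42882, 194), Gm13571 (Ly75, 249), Piezo1 (Ctu2, 2441) and Exosc9 (Ccna2, 510). Piezo1, a mechanically gated channel, fell from 76.5, 80.8 and 44.1 to 13, 9.67, 7.43, 7.64 and 11.0 CPM (-2.78, SE 0.31, edgeR adjusted p = 9.0e-06), while its partner Ctu2 had a log2 fold change of 1.51 (adjusted p = 0.0505). Gm13571 and Ly75, an endocytic receptor, fell by like amounts (-3.24 and -3.32). Among the lists, none of the 15 specific granule genes had an opposite-strand exon, and 9 of the 30 tested angiogenic genes had one. When only the 5599 tested genes with no gene on the opposite strand were fitted, the same 9 specific granule genes were called lower. Over all genes of that fit 138 were higher and 152 lower. It used the same counts of these genes, so it cannot show from which strand their reads came.

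Markers of other cells differed in level between lists. Erythroid and T or NK cell sums were at most 6.25 CPM, and the macrophage markers C1qa and Clec4f had 0 counts in all 8 libraries. Macrophage sums were 143 to 176 CPM in spleen and 134 to 201 in the liver, most of it Csf1r, which overlaps Hmgxb3 and was not called. In that list Ly6c2 was lower (-3.01, edgeR adjusted p = 8.4e-04). Endothelial sums were 165 to 286 and 171 to 349 CPM, with Cdh5 and Kdr at 0 counts, and Egfl7, which overlaps Agpat2, was lower (-1.28, edgeR adjusted p = 0.0117). Stellate cell and fibroblast sums were at most 10.7 CPM, and platelet sums were 144 to 260.5 and 141 to 308 CPM, almost all of it Gp1ba. The eosinophil marker Siglecf was higher (1.43, edgeR adjusted p = 0.0374), while Ear2 had 2 counts in all 5 liver libraries and 9 to 13 counts in each spleen library, a ratio of 23.2 (95% exact counting interval 5.95 to 199).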

How the data were processed

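The authors sequenced stranded libraries of sorted neutrophils, aligned the reads to GRCm38 with STAR 2.7.9a (submitters' processing notes), counted them per gene with HTSeq-count 0.6.1p1 and deposited raw counts of 12 libraries, of which 8 are compared here. The strand option is not given in the sources used here. The 5 summary entries of the table, which hold reads on no gene, entered neither library sizes nor tests. The p-values rest on 1267089 to 3017403 counts per library.

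Genes above 1 CPM in at least 3 of 12 libraries were fitted in 1 model of 3 groups (edgeR 4.0.16 quasi-likelihood, TMM scaling, R 4.3.3), with Benjamini-Hochberg adjustment over all 12488 genes. CPM values are TMM-normalized, and groups at 0 to 3 counts are given as bounds or count ratios. Exon overlaps use GENCODE M21, promoters RefSeq GRCm38.p6. The fit was tested on simulated data: called changed genes had the right sign, but unchanged genes made up a larger share of the calls than the adjusted p threshold allows, so calls near that threshold are uncertain.

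The members and gene lists were chosen with earlier results of these data known. Named are genes the study names at 72 hours, up to 8 called genes per granule, angiogenic and repair list and 3 per other list by adjusted p, the 5 genes with the smallest adjusted p per direction with and without an opposite-strand exon, and markers. Other list members are named outside this rule, after their values were seen. Alternatives were other scalings, DESeq2 1.42.0, limma-voom 3.58.1, other filters and fold limits, 8 libraries alone, a replicate block, genes without an opposite-strand gene, each replicate set alone, and leaving out each library. Whether replicate numbers pair the libraries could not be decided.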

Additional observations from a re-analysis of the deposited data

Results flagged for a closer look

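Of the 66 named genes, 6 differed between the liver time points in a direct test of 72 against 24 hours within the same edgeR fit. Ptgs2, Atf3, Cxcr4 and Il1b were named because the study reports them from these same libraries, so their difference was in part fixed by the choice. No share of all tested genes is set beside this count, which describes the named genes and tests nothing. The log2 difference of 72 minus 24 hours was 2.19 for Ptgs2 (edgeR adjusted p = 0.00718), 2.03 for Atf3 (0.0266), 1.78 for Cxcr4 (0.00438), 1.71 for Il1b (0.00223), 1.13 for Fos (0.0195) and 0.66 for Btg1 (0.0483). For Cxcr4 the log2 fold change of 24-hour liver over spleen was -0.57, against 1.21 at 72 hours.

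In 5 named genes 1 of the 5 72-hour libraries stood apart from the other 4 by Dixon's test, which chance alone would give for about 1 in 20 genes. These were Vegfa with 36.8 CPM in replicate 3, Mmp8 with 98.0 CPM in replicate 5, Nfkbiz with 34.7 CPM in replicate 1, Gm16894 with 711 CPM in replicate 2 and I830127L07Rik with 0.649 CPM in replicate 5, where the other 4 libraries had 0 counts.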

How the results depend on the processing

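The 666 calls (328 higher, 338 lower) ranged from 339 to 841 when 1 library was left out (168 to 435 higher, 171 to 406 lower), the lowest without spleen replicate 2. Only 72-hour replicates 1 to 3 gave 1189 calls (612 and 577), only replicates 4 and 5 gave 193 (103 and 90), and genes with no opposite-strand gene gave 290 (138 and 152), a fit of 5599 genes. Counting spleen replicates 1 and 2 as 1 sample, an alternative chosen after seeing the data, gave 364 calls (181 and 183), all 364 among those reported, with 9 lower specific granule, 7 higher angiogenic and 4 higher repair genes. The other settings gave 608 to 966 calls. With the 8 libraries alone 639 genes were called, 590 of them among those reported. Among the calls lost in that fit were Cd63, Slc11a1, Slc16a3, Slc2a1, Il12a, Cxcl10, Cebpe, Tgif1, S100a8 and Ikbkg (edgeR adjusted p from 0.0507 to 0.0779). With the replicate number as a block 874 genes were called (464 higher, 410 lower). Deviations of same-numbered spleen and 72-hour libraries correlated at 0.014, 0.038 and -0.116, and not every library correlated best with its own number. Since spleen replicates 1 and 2 were alike and replicate 3 stood apart, these values cannot decide whether the numbers pair the libraries. Of the 63 called named genes 38 were called under every alternative and 47 in every fit that left out 1 library, and none changed sign. Depth limits genes near 1 CPM, which rest on 1 to 3 reads a library.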
